A study of Mus musculus with 4 samples.

Results

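The Slc25 genes encode the mitochondrial carriers, and 46 of them were followed here in bone marrow stem and progenitor cells of mice with and without Cpt1a. Members were the protein-coding genes whose symbol is Slc25a followed by a number, with Slc25a20 left out, and they made up 46 of 55401 gene models, of which 21897 were protein-coding. The rule used the symbol and no measured value. A pseudogene, Slc25a5-ps, matched the symbol but had no count in any library and was not a member.

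Mitochondrial carriers are small proteins of the inner mitochondrial membrane that swap or move metabolites between the cytosol and the matrix. They bring in ADP, phosphate, iron, glycine, amino acids and cofactors, and they let out ATP, citrate and other products, so that they link glycolysis, the citric acid cycle, heme synthesis and nucleotide pools across a membrane that is otherwise closed. In blood-forming tissue the best known members are the iron carrier mitoferrin 1 and the glycine carrier SLC25A38, both of which feed heme synthesis in red cell precursors.

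RNA-seq was made from sorted bone marrow cells labelled ltHSC (long-term hematopoietic stem cells), which the study's text calls HSPCs, of adult mice on a C57BL/6 background. The 2 Control libraries, labelled WT, came from Cpt1a fl/fl mice, which carry a Cpt1a allele flanked by loxP sites and no Cre. The 2 KO libraries, labelled Cpt1a-KO, came from Cpt1a fl/fl mice with Vav1-Cre, a transgene active throughout the blood system, so that all blood lineages and not the stem cells alone carried the deletion. Cpt1a encodes the enzyme that lets long-chain fatty acids enter mitochondria, and the comparison asks how blood stem cells fare without it. The study's text counts more RNA-seq samples a group than the 2 analysed here. No label says whether the 2 replicates of a group came from separate mice, so the p-values rest on a spread between libraries that may be technical only.

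Levels are given as TPM, a transcript level scaled to the same total in every library, which corrects for transcript length and can be compared between genes. Changes are given on CPM (reads scaled to the total of the library, with no length correction), tested with edgeR on counts over all 14635 genes that had enough reads, and a gene passed at an adjusted p (Benjamini-Hochberg over all of these genes) under 0.05. Libraries held 20589218 and 23291747 estimated counts in Control and 34083159 and 33909781 in KO. The deleted gene itself followed its label: Cpt1a stood at 37.0 and 35.6 TPM in Control and 11.5 and 19.2 TPM in KO, and it fell by 1.60 on the log2 scale (SE 0.152, edgeR adjusted p = 0.00695). Marker transcripts of other blood cell types also differed between the groups. Of 23 erythroid markers tested 10 fell and none rose, with summed levels of 1829 and 1856 TPM in Control and 772 and 854 TPM in KO, and Slc4a1 at 0 in 3 of the 4 libraries. Of 14 B lineage markers 10 rose (summed 294 and 403 TPM in Control, 1114 and 856 TPM in KO, with Ms4a1 at 0 in Control). Of 12 mast cell and basophil markers 4 rose (summed 377 and 300.2 TPM in Control, 678 and 755 TPM in KO, with Cma1, Tpsab1 and Tpsb2 at 0 in Control). Over these 12 the estimates were above 0 for 9 and below 0 for 3. Much of their Control sum was Kit, which is also in the stem cell list, at 253 and 232 TPM in Control and 262 and 275 TPM in KO. Of 12 neutrophil markers 1 fell (summed 11952 and 8207 TPM in Control, 6422 and 6596 TPM in KO). Of the 12 genes of the stem cell list all were detected in Control and 1 rose, Cd48, which marks progenitors and is absent from the surface of long-term stem cells. Without Cd48 the other 11 summed to 922 and 1053 TPM in Control and 1095 and 1143 TPM in KO. A large part of that sum was Cd34, at 359 and 441 TPM in Control and 490 and 524 TPM in KO. The sum does not stand for each gene, since over the 12 the estimates were above 0 for 5 and below 0 for 7. Mecom, among the 7, had 17.0 and 28.9 TPM in Control and 12.85 and 13.76 TPM in KO. The libraries thus held marker transcripts of other blood cell types beside those of stem cells. Whether these came from mature cells or from progenitors was not tested. In such bulk RNA, fewer cells of a type and less RNA per cell cannot be told apart, and the part of these marker changes in any carrier value below was not tested.

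Most of the carrier family was transcribed, and no carrier passed the edgeR test between KO and Control. Of the 46 members 38 had enough reads to be tested, 7 had no count in any library and 1, Slc25a43, had 0 counts in both Control libraries and 16 and 1 in KO and was not tested. Among the 38 tested, 0 passed by edgeR, where 0.663% of all genes tested did (97 of 14635, 0.451% higher and 0.212% lower in KO), and the lowest adjusted p of a carrier was 0.357. At an unadjusted p under 0.05 there were 5 carriers, 13.2% of those tested beside 10.4% of all genes, of which 4 had lower and 1 had higher estimates in KO. That number changed with some libraries left out, as did the number of calls over all genes. At an unadjusted p no share over all genes was taken for other settings. The unadjusted counts that follow therefore cannot be set against a background. DESeq2, a second count test that called 8.15% of all genes (4.46% higher and 3.69% lower in KO), called 3 carriers, all lower in KO: Slc25a10, Slc25a21 and Slc25a17, with 7 at an unadjusted p under 0.05. Limma on log2 TPM called 0, with 3 at an unadjusted p under 0.05.

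The summed level of the family in TPM was nearly the same in the 4 libraries. It was 2202 and 2094 TPM in Control and 2115 and 2081 TPM in KO, which is 2148 ± 76.4 TPM (SD, n = 2) in Control and 2098 ± 24.2 TPM (SD, n = 2) in KO. The KO libraries overlapped the Control libraries in TPM. In CPM the sum was 2411 and 2360 in Control and 2323 and 2282 in KO, so that both KO libraries lay below Control, with a KO mean of 0.965 times the Control mean. The median log2 fold change over the 38 carriers was -0.08, beside 0.01 over all genes tested, and the middle of the carriers lay between -0.29 and 0.09, beside -0.24 and 0.27 for all genes. Estimates were above 0 for 18 carriers and below 0 for 20.

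**Figure D1:**
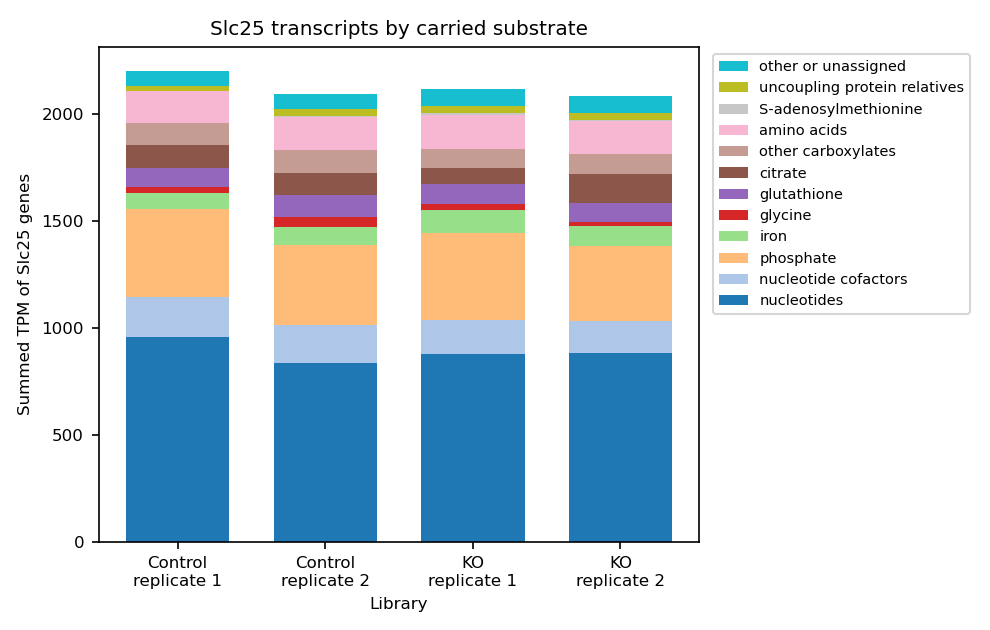
Stacked bars of summed TPM of the Slc25 genes in each of the 4 libraries (vertical axis, TPM from 0), split by the substrate the carrier is known for. The bars end between 2081 and 2202 TPM in all libraries, and carriers of nucleotides make the largest block in each.

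How firmly a change can be bounded differed between carriers. The 95% interval of the fold change lay within 2-fold in either direction for 23 of the 38 carriers, beside 53.6% of all genes tested. It lay within 1.5-fold for 13, a count for which no share over all genes was taken. For each of these carriers a change between these groups larger than its bound lay outside the interval. For the tested members not among the 23, the interval reached past 2-fold. The median distance between replicates of a carrier was 0.29 on the log2 CPM scale in Control and 0.16 in KO, beside 0.29 and 0.23 over all genes tested. Replicates stood more than 2-fold apart for 7 carriers in Control (Slc25a14, Slc25a26, Slc25a29, Slc25a35, Slc25a42, Slc25a47 and Slc25a53) and for 2 of these, Slc25a42 and Slc25a53, in KO.

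A few carriers supplied most of the transcripts. Mean levels passed 100 TPM for 4 members, the ADP/ATP carriers Slc25a5 and Slc25a4, the phosphate carrier Slc25a3 and the citrate carrier Slc25a1. Slc25a5 and Slc25a3 together made 52.2% and 48.0% of the family's TPM in Control and 49.98% and 47.4% in KO. Mean levels were over 10 TPM for 27 members and under 10 TPM for 11 of those tested. The members with no count were Slc25a31, the ADP/ATP carrier of the testis, Slc25a41, Slc25a2, Slc25a18, Slc25a34, Slc25a48 and Slc25a54.

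**Figure D2:**
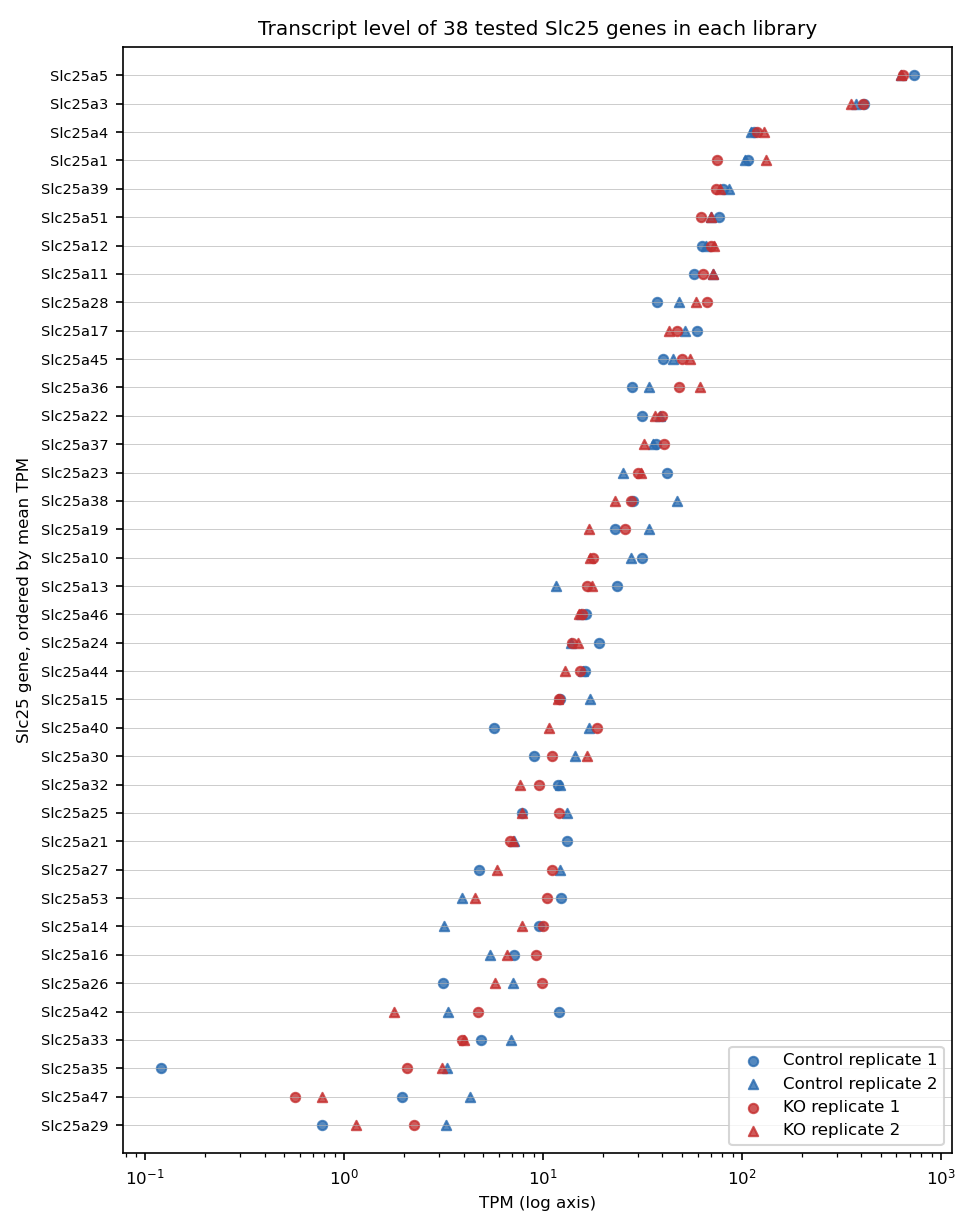
TPM of the 38 tested Slc25 genes (horizontal log axis) in each library, with genes ordered by mean level, Control in blue, KO in red, circles for replicate 1 and triangles for replicate 2. The 4 points of a gene mostly lie close together at high levels and spread widely below 10 TPM, and Slc25a10, Slc25a28 and Slc25a36 are among the genes whose colours do not overlap.

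Sequences upstream of 3 carriers are shown because the iron, glycine and citrate groups are described next. Slc25a37, the other carrier of the iron group, had no such window and is not shown. All sequences are RefSeq windows of GRCm38.p6 on the gene's own strand, 5′ to 3′, with the letters found by a motif search in capitals. The Slc25a28 window (chr19:43674882-43675131, minus strand) has in capitals a match to AGATAG, a form of the GATA motif, read on the opposite strand. The Slc25a38 window (chr9:120110132-120110381, plus strand) has in capitals CCGGAAG, a core bound by ETS factors, and 8 of its bases lie in annotated exons. The Slc25a1 window (chr16:17928220-17928469, minus strand) has in capitals the E-box CACGTG.
Slc25a28: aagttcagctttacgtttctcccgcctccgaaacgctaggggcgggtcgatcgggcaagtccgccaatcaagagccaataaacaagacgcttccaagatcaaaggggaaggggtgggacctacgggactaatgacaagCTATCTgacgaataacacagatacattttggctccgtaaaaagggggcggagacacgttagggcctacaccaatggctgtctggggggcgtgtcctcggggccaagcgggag
Slc25a38: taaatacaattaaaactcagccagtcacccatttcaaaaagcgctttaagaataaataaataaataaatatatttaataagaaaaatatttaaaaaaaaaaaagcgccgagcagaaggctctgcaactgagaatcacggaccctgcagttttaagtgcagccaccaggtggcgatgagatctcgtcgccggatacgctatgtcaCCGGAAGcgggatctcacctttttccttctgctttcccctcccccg
Slc25a1: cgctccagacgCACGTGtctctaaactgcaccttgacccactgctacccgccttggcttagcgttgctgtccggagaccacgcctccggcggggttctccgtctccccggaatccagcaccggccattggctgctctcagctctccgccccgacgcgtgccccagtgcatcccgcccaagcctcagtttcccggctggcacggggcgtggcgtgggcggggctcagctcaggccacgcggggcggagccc

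Over the family, 35 of the 46 members had such a window of 250 bases upstream of the gene start. Searched on both strands, CACGTG was present in 7 of the 35 (20%) beside 6.86% of 27025 genes, and these were Slc25a1, Slc25a13, Slc25a14, Slc25a15, Slc25a31, Slc25a33 and Slc25a36. CCGGAAG was present in 5 (14.3%) beside 7.83% of genes, and the core motif of the factor NRF-1 in 2 (5.71%) beside 4.23%. At least 1 of 4 GATA forms (AGATAA or AGATAG, or either with a leading T in place of A) was present in 6 (17.1%) beside 29.7%. The windows of the family were richer in G and C, with a median of 60.0% and 14 CpG pairs, than those of all genes, with 52.8% and 6. These shares are descriptions of letters, with no test, and base composition differs between the sets.

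The nucleotide carriers were the most abundant group, and none of the 7 tested of 9 passed the test. Slc25a5 (chrX:36795651-36798807, mm10, plus strand), the main ADP/ATP carrier of dividing cells, had 738 and 629 TPM in Control and 649.7 and 634 TPM in KO. Both KO values lay between the Control values. Its log2 fold change was -0.12 with a 95% interval of -0.35 to 0.11 (SE 0.098, edgeR adjusted p = 0.766). Slc25a4, the ADP/ATP carrier of heart and muscle, had 115 and 111 TPM in Control and 119 and 129 TPM in KO. In TPM both KO libraries of Slc25a4 stood above Control but in CPM they overlapped, and the log2 fold change was 0.05 (95% interval -0.22 to 0.32).

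The ATP-Mg/phosphate carriers, which adjust the total adenine nucleotide pool of the matrix in response to calcium, were expressed at a lower level. Slc25a23 had 42.0 and 25.4 TPM in Control and 30.0 and 31.3 TPM in KO, but 54.7 and 56.6 CPM in Control and 58.5 and 68.5 CPM in KO. In reads the KO libraries thus lay above Control and in TPM they overlapped, and the log2 fold change was 0.18 (interval -0.20 to 0.56) on counts and -0.15 with effective length in the model. Slc25a24 had 19.2 and 13.8 TPM in Control and 14.1 and 15.1 TPM in KO (log2 fold change -0.08, interval -0.57 to 0.40), and Slc25a25 had 7.91 and 13.3 TPM in Control and 12.1 and 7.90 TPM in KO (-0.29, interval -1.04 to 0.45). The groups overlapped on both scales for Slc25a24 and Slc25a25.

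The carriers of pyrimidine nucleotides, which supply mitochondrial DNA and RNA synthesis, gave a different picture on the scales of TPM and CPM. Slc25a36 (chr9:97074961-97111157, minus strand) had 28.1 and 34.2 TPM in Control and 48.3 and 61.4 TPM in KO, but 93.7 and 96.6 CPM in Control and 95.1 and 97.8 CPM in KO. The KO libraries were thus higher in TPM and level in reads. RSEM's effective length for the gene, by which reads are divided to give TPM, was 4583 and 3875 bases in Control and 2771 and 2215 bases in KO, so the reads were assigned to shorter transcripts in KO. On counts the log2 fold change was 0.01 (interval -0.28 to 0.29), and with effective length in the model it was 0.80 with an unadjusted p of 0.00771 and an edgeR adjusted p of 0.452. Slc25a33, the other pyrimidine carrier, had 4.87 and 6.93 TPM in Control and 3.91 and 4.04 TPM in KO, with KO below Control in both replicates and a log2 fold change of -0.61 (interval -1.83 to 0.61). Across the 38 carriers, the log2 ratio of mean TPM and that of mean CPM differed by more than 0.58 for only 2, Slc25a36 (0.80) and Slc25a53 (-0.62), beside 8.76% of all genes.

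**Figure D3:**
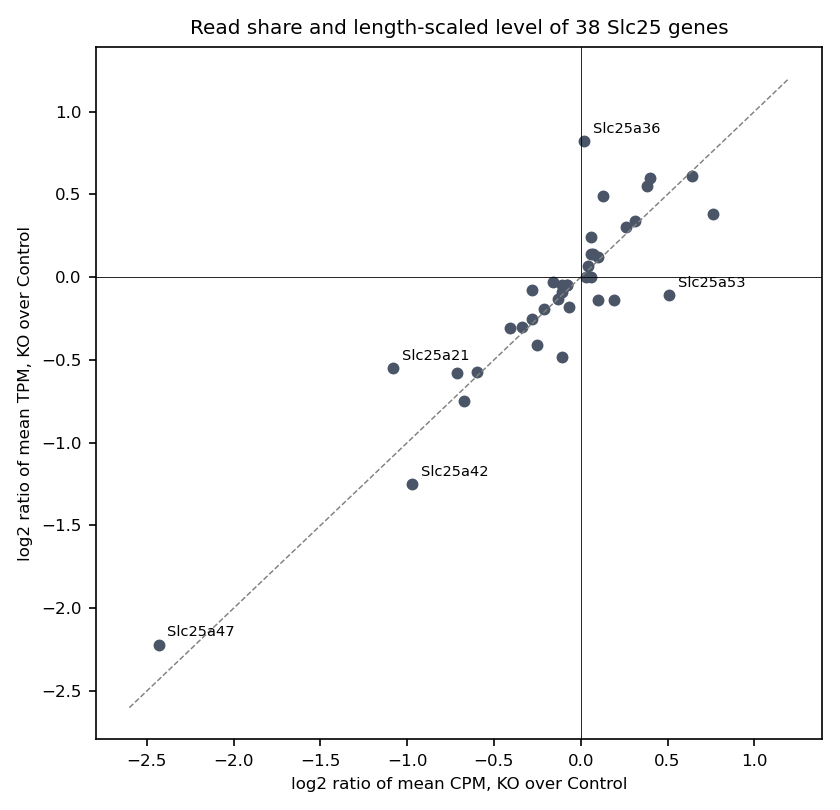
Log2 ratio of the KO mean to the Control mean in CPM (horizontal) and in TPM (vertical) for the 38 tested Slc25 genes, 1 point a gene, with a dashed line where both are equal. Most points lie near the line, and Slc25a36 lies 0.80 above it with no difference in CPM.

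Both iron carriers, the mitoferrins, were well expressed, and neither passed the test. Slc25a28 (mitoferrin 2, chr19:43663801-43674881, minus strand), which is found in most tissues, had 37.4 and 48.5 TPM in Control and 66.7 and 59.0 TPM in KO. In CPM it had 48.2 and 48.8 in Control and 72.4 and 54.1 in KO. The KO libraries lay above the Control libraries on both scales, and the log2 fold change was 0.37 with a 95% interval of -0.06 to 0.80 (SE 0.187, edgeR adjusted p = 0.546). Slc25a37 (mitoferrin 1, chr14:69241848-69285112, minus strand), the iron carrier of red cell precursors, had 37.1 and 36.0 TPM in Control and 40.8 and 32.3 TPM in KO. Its groups overlapped, with a log2 fold change of 0.04 (interval -0.27 to 0.36), while the summed erythroid markers were lower in both KO libraries.

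Slc25a38 (chr9:120110374-120124504, plus strand), which carries glycine into the matrix for the first step of heme synthesis, was lower in KO in both libraries but did not pass the test. It had 28.4 and 47.6 TPM in Control and 27.9 and 23.0 TPM in KO. The higher KO library came close to the lower Control library in TPM. In CPM the values were 25.9 and 32.5 in Control and 20.5 and 15.2 in KO, and the log2 fold change was -0.72 with an interval of -1.35 to -0.09 (SE 0.272, unadjusted p = 0.0292, edgeR adjusted p = 0.429). By DESeq2 its adjusted p was 0.0519. Of genes that act on the products of glycine and iron import, Alas1, which makes the first heme intermediate, had 273 and 194 TPM in Control and 155 and 143 TPM in KO (log2 fold change -0.56, edgeR adjusted p = 0.215). Fech, which puts iron into heme, had 66.8 and 68.8 TPM in Control and 28.2 and 37.9 TPM in KO (-0.75, adjusted p = 0.250), and the inner membrane transporter Abcb10, known from red cell precursors, had 21.4 and 20.9 TPM in Control and 13.1 and 11.9 TPM in KO (-0.80, adjusted p = 0.144). All 3 had both KO libraries below Control without passing by edgeR, and DESeq2 called all 3. Beside them, 10 of 23 erythroid markers fell, Alas2, the red cell form of Alas1, was at 0 in all 4 libraries, and what part the erythroid RNA had in the value of Slc25a38 was not tested.

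Slc25a1 (chr16:17925223-17928219, minus strand), which exports citrate for fatty acid and sterol synthesis, did not pass the test. It had 108 and 104 TPM in Control and 74.96 and 132 TPM in KO. The KO values lay on either side of Control, while in CPM (94.7 and 83.9 in Control, 67.4 and 92.8 in KO) 1 KO library lay between the Control libraries, and the log2 fold change was -0.17 (interval -0.58 to 0.25, edgeR adjusted p = 0.859).

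The remaining carboxylate carriers included the lowest p of the family. Slc25a10 (chr11:120491840-120499187, plus strand), which exchanges malate and succinate for phosphate, had 31.5 and 27.7 TPM in Control and 18.0 and 17.3 TPM in KO, and 33.9 and 34.2 CPM in Control and 20.9 and 21.9 CPM in KO. The replicates stood close together in both groups and the groups were apart on both scales. The log2 fold change was -0.68 with an interval of -1.19 to -0.17 (SE 0.220, unadjusted p = 0.0147), and the edgeR adjusted p over all genes was 0.357, while DESeq2 gave an adjusted p of 0.00364. Slc25a21 (chr12:56712634-57197472, minus strand), which carries oxoadipate from lysine breakdown, had 17.4 and 12.3 CPM in Control and 7.60 and 6.49 CPM in KO. In TPM it had 13.3 and 7.21 in Control and 6.87 and 7.06 in KO, so that the gap between the groups was narrow on that scale. Its log2 fold change was -1.09 (SE 0.377, edgeR adjusted p = 0.401, DESeq2 adjusted p = 0.0188). Slc25a11, the malate/oxoglutarate carrier and the most abundant of these 3, had 57.7 and 71.9 TPM in Control and 64.3 and 71.6 TPM in KO, which overlapped, with a log2 fold change of 0.03 (interval -0.38 to 0.43). A stretch of 8.92% of its exon bases overlaps Rnf167 on the opposite strand, and whether the counting used strand is not known from the sources used here.

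Of the 8 amino acid carriers 6 were tested and none passed, with estimates above 0 for 2 and below 0 for 4 and a median of -0.15. Slc25a12, which exchanges aspartate for glutamate in the malate-aspartate shuttle, had 63.4 and 66.2 TPM in Control and 70.4 and 73.0 TPM in KO. In CPM its groups overlapped, and the log2 fold change was 0.06 (interval -0.25 to 0.37). Its relative Slc25a13 had 23.8 and 11.7 TPM in Control and 16.7 and 17.6 TPM in KO, both KO values lying between the Control values. Slc25a22, a glutamate carrier, had 31.6 and 38.8 TPM in Control and 39.9 and 36.7 TPM in KO, which overlapped. Slc25a15, the ornithine carrier of the urea cycle, had 12.2 and 17.3 TPM in Control and 12.03 and 11.97 TPM in KO. Both KO values of Slc25a15 lay just under the lower Control value, with a log2 fold change of -0.36 (interval -0.94 to 0.22, edgeR adjusted p = 0.702). Slc25a44, which carries branched-chain amino acids, had 16.4 and 16.0 TPM in Control and 15.4 and 13.0 TPM in KO (log2 fold change -0.22, interval -0.70 to 0.26), again with KO just under Control. Slc25a29, a carrier of basic amino acids, was near the limit of detection at 0.78 and 3.27 TPM in Control and 2.26 and 1.15 TPM in KO.

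Among carriers of cofactors built from nucleotides, Slc25a17 (chr15:81318911-81360812, minus strand), which acts in the peroxisome membrane on coenzyme A and related cofactors, had 61.7 and 55.4 CPM in Control and 42.7 and 45.2 CPM in KO, and 59.6 and 52.0 TPM in Control and 47.1 and 43.0 TPM in KO. The groups did not overlap on either scale. Its log2 fold change was -0.42 (interval -0.81 to -0.03, SE 0.169, edgeR adjusted p = 0.450, DESeq2 adjusted p = 0.0375). Slc25a42, the coenzyme A carrier, had 12.1 and 3.36 TPM in Control and 4.72 and 1.78 TPM in KO. The groups overlapped and the replicates were more than 2-fold apart in both, with a log2 fold change of -0.97 (interval -2.35 to 0.39) that ranged from -0.17 without Control replicate 1 to -1.75 without KO replicate 1. The other 4 tested, among them the NAD carrier Slc25a51, had log2 fold changes between -0.27 and 0.30.

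Of the pair that carries glutathione, the main thiol antioxidant of the cell, the less abundant member had a higher estimate in KO. Slc25a40 (chr5:8422850-8454797, plus strand) had 10.3 and 14.7 CPM in Control and 21.7 and 20.5 CPM in KO, but 5.68 and 17.1 TPM in Control and 18.8 and 10.8 TPM in KO. The KO libraries were above Control in CPM and overlapped Control in TPM. Its log2 fold change was 0.74 (interval 0.03 to 1.45, SE 0.307, unadjusted p = 0.0425, edgeR adjusted p = 0.460). Slc25a39, its more abundant relative, had 80.7 and 86.1 TPM in Control and 74.3 and 77.8 TPM in KO, with KO just below Control and a log2 fold change of -0.14 (interval -0.47 to 0.18).

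Slc25a3 (chr10:91116574-91124059, minus strand), which brings in the phosphate for ATP synthesis, had 411 and 375 TPM in Control and 408 and 353 TPM in KO. The groups overlapped in TPM, while in CPM both KO libraries lay below Control (401 and 383 in Control, 374 and 354 in KO). The log2 fold change was -0.12 (interval -0.32 to 0.09, edgeR adjusted p = 0.724), one of the narrowest bounds in the family. Slc25a45 had 40.2 and 45.2 TPM in Control and 50.2 and 54.7 TPM in KO, with KO above Control on both scales and a log2 fold change of 0.25 (interval -0.10 to 0.59, adjusted p = 0.622). Slc25a47 (chr12:108836046-108856815, plus strand), a carrier best known from liver, had 1.97 and 4.30 TPM in Control and 0.57 and 0.78 TPM in KO. It had the most negative estimate of the family, -2.43, on few reads and with an interval of -5.72 to 0.84, and leaving out 1 library moved it to between -2.98 (KO replicate 2) and -1.74 (Control replicate 2). The 3 relatives of the uncoupling proteins (Slc25a14, Slc25a27 and Slc25a30) had log2 fold changes of 0.01 to 0.12, the S-adenosylmethionine carrier Slc25a26 had 0.62 (interval -0.61 to 1.86, and 0.17 or 1.30 when the first or the second Control library was left out), and the other 3 tested were Slc25a35, Slc25a46 and Slc25a53. Slc25a35 shares 31.3% of its exon bases with Rangrf on the opposite strand, which reached 73.9 TPM, so that its 0.12 to 3.29 TPM are uncertain.

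**Figure D4:**
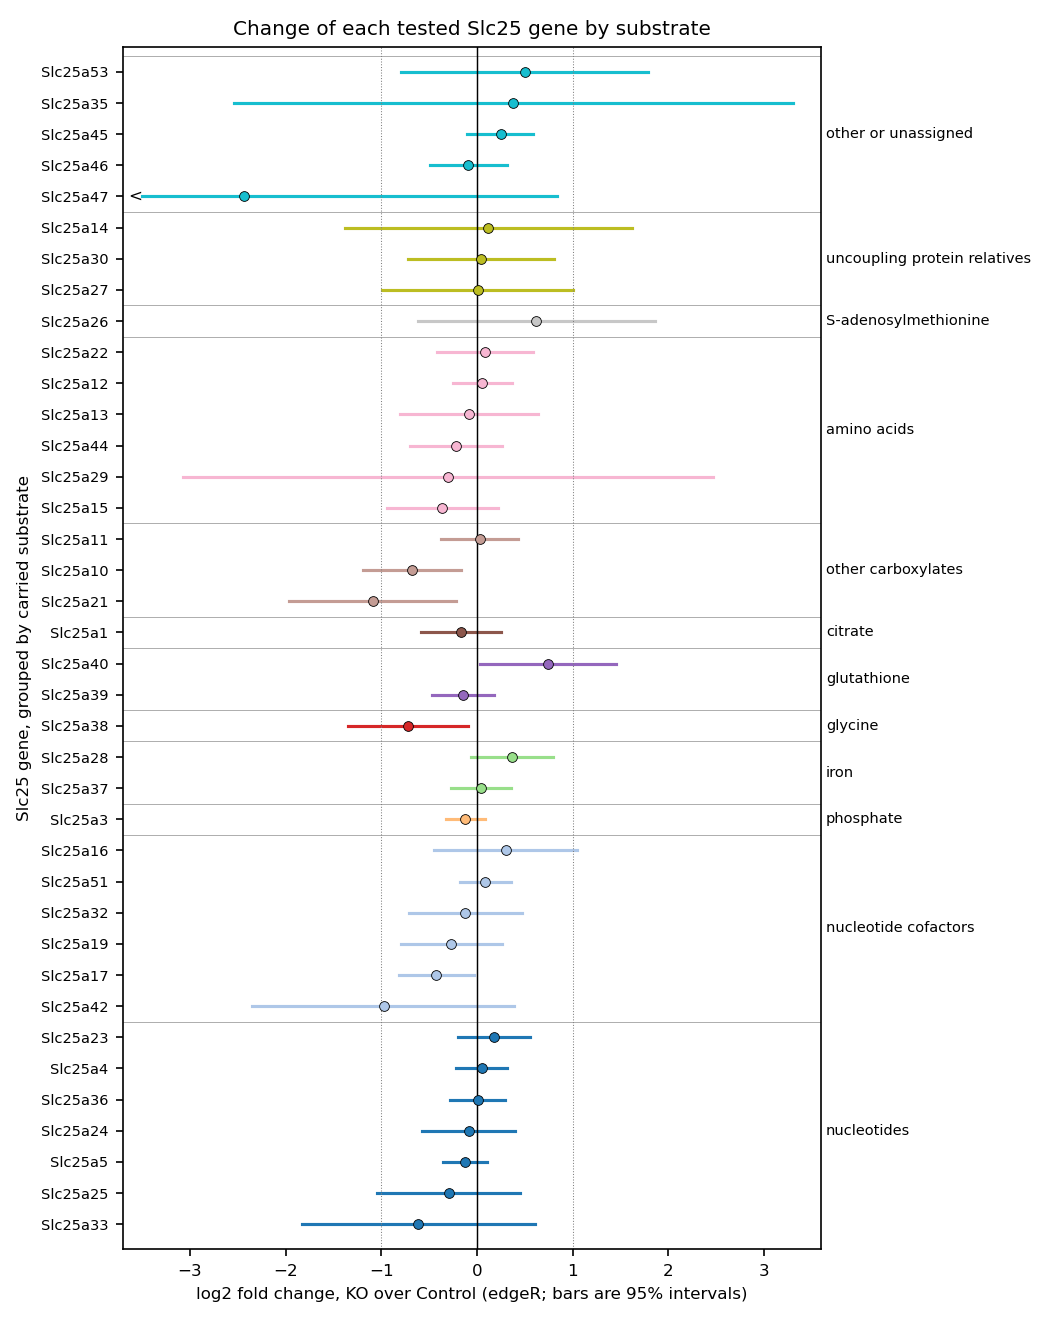
Log2 fold change of KO over Control from edgeR (horizontal axis) for each of the 38 tested Slc25 genes, grouped by the substrate carried, with 95% intervals as bars, dotted lines at a 2-fold change and an arrowhead where a bar runs past the axis. The interval leaves out 0 for 5 genes, Slc25a10, Slc25a17, Slc25a21, Slc25a38 and Slc25a40, and no gene passed after adjustment.

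By position of the libraries alone, both KO libraries lay below both Control libraries in CPM for 12 of the 38 carriers (31.6%, beside 18.3% of all genes tested) and above them for 5 (13.2%, beside 23.6%). In TPM the counts were 10 below (26.3%, beside 16.8%) and 5 above (13.2%, beside 23.1%). Both scales put KO below Control for 9 carriers and above for 2, Slc25a28 and Slc25a45. No share over all genes was taken for the 2 scales together, so these 2 counts cannot be set against a background. These are counts over genes of the same 4 libraries and carry no test.

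Summed by substrate, both KO libraries lay above both Control libraries in TPM for 4 of 12 groups (iron, amino acids, uncoupling protein relatives, and other or unassigned carriers) and below for 3 (glycine, nucleotide cofactors and other carboxylates). In CPM the same was seen for those 3 and for the other or unassigned carriers, while the amino acid sums, like the phosphate carrier, lay below Control on that scale. Nucleotide cofactor carriers summed to 191 and 177 TPM in Control and 159 and 146 TPM in KO. Other carboxylate carriers summed to 102 and 107 TPM in Control and 89.1 and 95.9 TPM in KO, and other or unassigned carriers to 71.1 and 72.3 TPM in Control and 79.9 and 78.4 TPM in KO. These sums each rest on 1 to 9 genes and carry no test. The mitoferrins summed to 74.5 and 84.5 TPM in Control and 108 and 91.3 TPM in KO but overlapped in CPM (159.6 and 171 in Control, 205 and 164 in KO), and without Slc25a28 the log2 ratio of the KO to the Control mean went from 0.32 to 0.00. Nucleotide carriers summed to 955 and 833 TPM in Control and 877 and 883 TPM in KO. Amino acid carriers summed to 148 and 153 TPM in Control and 157 and 153 TPM in KO. The KO sums of the nucleotide group lay between the Control sums, and the 4 TPM sums of the amino acid group lay close together.

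Genes that work with the carriers had no member that passed the edgeR test. DESeq2 called 8 of the 48 tested, 1 higher and 7 lower in KO. Over all genes DESeq2 called 8.15%, with 4.46% higher and 3.69% lower in KO. Of the 5 relatives with the same fold but other symbols, 3 were tested: Ucp2, which had 420.4 and 470.2 TPM in Control and 525 and 554 TPM in KO (log2 fold change 0.28, edgeR adjusted p = 0.356), Mtch1 and Mtch2, with a median of 0.12. Ucp2, a carrier relative abundant in blood cells, was higher in both KO libraries and was the 1 at an unadjusted p under 0.05. Ucp1 was at 0 in all libraries. Of 13 genes that import carriers into mitochondria 0 passed and 1, the outer membrane channel Tomm40, was at an unadjusted p under 0.05 (-0.34), with a median of -0.20. Of 14 other transporters of the mitochondrial membranes 0 passed and 3 were at an unadjusted p under 0.05, all with lower estimates in KO (Abcb10, Tmem14c at -0.65 and the pyruvate carrier subunit Mpc1 at -0.52), with a median of -0.08. Of 18 enzymes tested that use carried metabolites 0 passed and 6 were at an unadjusted p under 0.05, all with lower estimates in KO, with a median of -0.12. Among these were Alas1, Fech, the citrate-splitting enzyme Acly (-0.26) and the cysteine desulfurase Nfs1 (-0.44). By DESeq2, Ucp2 was called higher in KO, and Tomm40, Abcb10, Tmem14c, Alas1, Fech, Acly and the citrate synthase Cs were called lower. Over all genes tested by edgeR, 4.61% were at an unadjusted p under 0.05 with a lower estimate in KO and 5.81% with a higher one.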

How the data were processed

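RNA was extracted from sorted cells kept in RNAlater, and directional libraries of polyadenylated RNA were prepared with NEBNext Ultra II. By the study's methods, libraries were sequenced on an Illumina HiSeq, and STAR, RSEM and mm10 are named in the processing notes of the submitters. Tool versions, annotation and strand setting were not given in the sources used here. The deposited files hold RSEM's expected counts per gene (estimated counts, not normalized), in which reads that fit several genes are divided among them. The authors' files also give TPM, scaled by library and by effective length, and the effective length itself. The largest posterior SD that RSEM gave for a carrier was 1.96 counts.

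GENCODE M21 (release number 21) gave symbols to 55141 of 55401 gene models by identifier, and 45 of the 46 members had the same version. Expected counts were rounded and tested with edgeR 4.0.16 in R 4.3.3 (quasi-likelihood F test, robust, TMM factors 0.985 to 1.01) with genotype as the only term, over 14635 genes kept by filterByExpr (minimum count 10). The common dispersion was 0.222. Tests were two-sided, adjusted by Benjamini-Hochberg over all genes tested. The SE is the unshrunk coefficient over the square root of F. CPM is the expected count scaled to the total of the library. For 1 gene in 2 against 2 libraries, the smallest p of an exact permutation test is 0.333, so p-values rest on spread pooled over genes, and depth of 20589218 to 34083159 counts per library limits the low carriers. The edgeR test was tried on simulated data with known changes. The spread set there was lower than the common dispersion of these libraries, so that trial does not show how the test performs here.

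Alternatives were RLE factors, DESeq2 1.42.0, no filter, effective length as an offset, limma 3.58.1 on log2(TPM + 1) with genes at 1 TPM or more in 2 libraries, limma with a pseudocount of 0.1, limma with no filter, the replicate number as a block, and leaving out each library. The members and all gene lists were chosen with earlier results of these data known. Carriers were described in full if they passed the test, if they were among the 12 with the smallest p, or if they carry nucleotides, iron, glycine, citrate or amino acids and reached 1 TPM in a library, and of other lists those that passed and up to 4 with the smallest p. Promoter letters came from RefSeq windows of GRCm38.p6.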

Additional observations from a re-analysis of the deposited data

How the results depend on the processing

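No carrier passed edgeR's test under RLE factors, no filter on low counts (39 carriers tested) or effective length as an offset. None passed limma on TPM in 3 forms, a separate test that called at most 5 of all genes. With any library left out, none passed by edgeR. With the library left out, carriers at an unadjusted p under 0.05 numbered 5 without the first Control library, 8 without the second, 2 with KO replicate 1 left out and 1 with KO replicate 2 left out, beside 5 with all libraries. A lone library was then assumed to vary like the other group, and no share over all genes was taken for these counts. DESeq2 called 3 carriers, and the cause of the difference was not tested. The estimates of Slc25a10, Slc25a17, Slc25a21, Slc25a38 and Slc25a40 kept their sign under all 12 alternatives. These 5 were picked by their p in the same libraries, so the kept sign is no separate support. With effective length as an offset, Slc25a21 went from -1.09 to -0.57 and Slc25a40 from 0.74 to 0.36. On that setting Slc25a10 stood at -0.76, Slc25a17 at -0.33 and Slc25a38 at -0.60. Over all carriers, up to 9 changed sign in 1 alternative (without Control replicate 1). The replicate numbers were not shown to pair the libraries (correlation of same-numbered deviations -0.0239), and with the replicate block 0 carriers passed and 5 were at an unadjusted p under 0.05. Over all genes, calls numbered 66 higher and 31 lower, and 628 and 519 by DESeq2, 111 and 85 with no filter, 3 and 1 with effective length as an offset, 5 and 0, 0 and 0, and 0 and 0 by the 3 limma forms, 176 and 144 when the first Control library was left out and 238 and 133 when the second was, and 24 and 18 or 38 and 26 when the first or the second KO library was.

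The log2 ratio of summed levels, KO mean over Control mean, differed with the scale or with the member left out, and 7 groups are given here. Some of these moves were smaller than the distance between replicates, as in CPM for iron, with KO sums of 108 and 91.3 TPM. The cause was not tested beyond which member was left out. In CPM in place of TPM it went from 0.04 to -0.05 for amino acid carriers, from 0.32 to 0.16 for iron, from -0.27 to -0.10 for nucleotide cofactors and from -0.18 to -0.25 for other carboxylates. Without the member of highest TPM it went to -0.04 for amino acids (Slc25a12), from -0.06 to 0.38 for glutathione (Slc25a39), to 0.00 for iron (Slc25a28), to -0.35 for nucleotide cofactors (Slc25a51), from -0.02 to 0.18 for nucleotides (Slc25a5), to -0.69 for other carboxylates (Slc25a11) and from 0.14 to -0.12 for other or unassigned carriers (Slc25a45).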
